A study of Mus musculus with 5 samples.

Results

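The genes of the cytosolic ribosomal proteins were described in SLAMseq data from cultured mouse cardiac fibroblasts (CF). They were taken by name, as every gene called *Rpl* or *Rps* and a digit, together with *Rplp0*, *Rplp1*, *Rplp2* and *Rpsa*, without the S6 kinases, the Rps19-binding protein and named pseudogenes. The rule found 88 genes with 120 counted intervals, of 20365 genes with 40428 distinct intervals in all. Of the 88 genes, 46 belong to the core of the large (60S) subunit and 31 to that of the small (40S) subunit. The other 11 are paralogs or retrogenes, among them *Rps27l*, *Rps27rt* and *Rpl22l1*. *Rack1* also encodes a protein of the ribosome, but falls outside the name rule and was used for comparison. The proteins of the mitochondrial ribosome, 78 genes, were used in the same way.

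CF came from hearts of adult, healthy, male wildtype C57Bl/6J mice, and were depleted of CD31+ and CD45+ cells and grown to confluency. In the labeled group, 3 libraries came from CF given 0.1 mM of the uridine analog 4-thiouridine (S4U) for 12 h. In the unlabeled group, 2 libraries came from CF kept for the same time without S4U. RNA of both groups was alkylated with iodoacetamide, which makes incorporated S4U read as C in place of T, and was sequenced from the 3′ end with unique molecular identifiers. Each sample joined cells of more than 1 culture well, and the cells are a primary culture rather than an intact tissue.

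The cytosolic ribosome joins ribosomal RNA with a fixed set of proteins, and each core protein is needed in every cell that makes protein. Their mRNAs are abundant and known to be long-lived, and many start with a run of pyrimidines, the 5′ terminal oligopyrimidine (TOP) tract, through which mTOR signaling sets how strongly they are translated. In the heart, CF depend on protein synthesis to make the extracellular matrix. The T>C conversion rate, the share of covered T positions read as C, rises with the part of a transcript made while S4U was present.

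With 1 interval kept for each gene, the libraries held from 506045 to 1842863 counted reads, and the ribosomal protein genes took 2.92, 1.94 and 2.07% of them in labeled replicates 1, 2 and 3. In unlabeled replicates 1 and 2 they took 3.16 and 1.68%. The libraries thus differed more within a group than the groups did. The 8 fibroblast markers had a summed level of 30600 to 33500 CPM (reads per 1000000 counted reads) in labeled and 23600 to 27300 CPM in unlabeled libraries. Markers of other cells were far lower, with at most 187 CPM summed for endothelial, 104 for immune, 13.1 for mural and 7.03 for cardiomyocyte markers, and *Myl2* and *Ryr2* of the cardiomyocyte had no read in any library.

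In the labeled libraries, ribosomal protein transcripts carried fewer conversions than most transcripts of these cells. Of the 88 genes, 29 were covered on 1000 or more T positions in each of the 5 libraries. Their mean rate in the labeled libraries had a median of 0.0230 conversions per covered T, with quartiles at 0.0182 and 0.0281. The 2105 genes covered as deeply had a median of 0.0388 and quartiles at 0.0343 and 0.0423. All but *Rps27l* lay below the median of all genes, and 25 of the 29 lay below its lower quartile. The medians of the 29 genes in labeled replicates 1, 2 and 3 were 0.0215, 0.0242 and 0.0229, and those of all genes 0.0378, 0.0390 and 0.0388. Every labeled library thus showed the lower rate. The order of the 29 genes was much alike between labeled libraries, with Spearman correlations across genes of 0.897, 0.897 and 0.795. These are descriptions, since genes are not replicates.

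**Figure D1:**
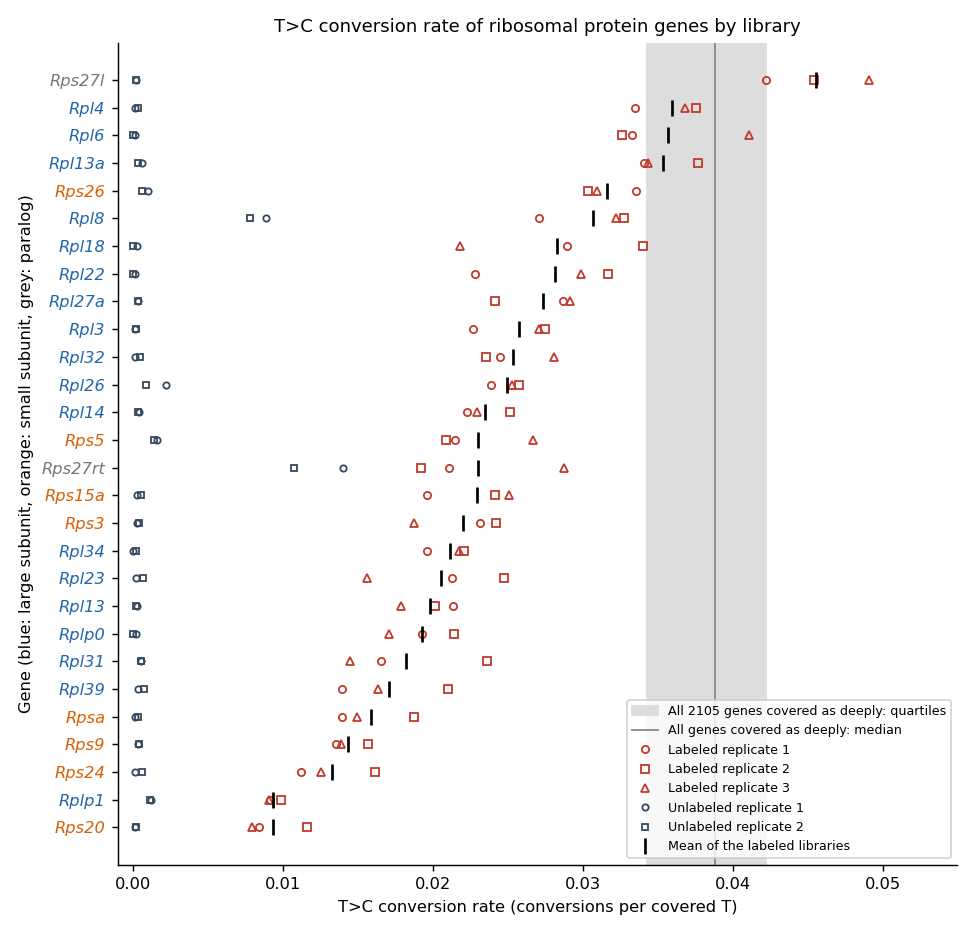
T>C conversion rate, in conversions per covered T, of 28 of the 29 ribosomal protein genes with 1000 or more covered T in each library, with 1 point per library, a black tick at the mean of the labeled libraries and a grey band at the quartiles of all 2105 genes covered as deeply. Most genes lie left of the band, from *Rps20* at 0.00932 upward, *Rps27l* lies to its right at 0.0456, and *Rps27rt* and *Rpl8* have unlabeled rates well above the others.

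The 9 genes of the small subunit among the 29 had a median of 0.0168, and the 18 of the large subunit 0.0252. Genes of the small subunit therefore filled most of the low end. *Rps20* (ENSMUSG00000028234.8), whose protein sits in the head of the small subunit, was counted on the minus strand of chromosome 4 of GRCm39 from 3831584 to 3834500, all in its last exon. Its rate was 0.00843, 0.0116 and 0.00793 in the labeled libraries, and 0.000141 and 0.000197 in the unlabeled libraries (beta-binomial test, p = 2.14e-05). *Rplp1* (ENSMUSG00000007892.10), a protein of the flexible stalk that recruits translation factors to the large subunit, was counted on chromosome 9, minus strand, from 61820565 to 61820605 in the last exon. Its rate was 0.00915, 0.00988 and 0.00908 in the labeled and 0.00117 and 0.00113 in the unlabeled libraries (beta-binomial test, p = 1.79e-07). *Rps20* and *Rplp1* were the lowest of the 29 genes in each labeled library, in either order, and only between 1.14 and 2.28% of all genes covered as deeply were lower. *Rps24*, *Rps9* and *Rpsa* followed, with mean rates of 0.0133 ± 0.00258, 0.0144 ± 0.00114 and 0.0159 ± 0.00254 (SD, n = 3). Neighbours among these 3 do not differ beyond their spread.

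At the high end of the 29 genes, *Rps27l* stood apart. It encodes a close relative of the small subunit protein Rps27 and is a known target of p53. Its interval (ENSMUSG00000036781.15) lies on chromosome 9, plus strand, from 66856624 to 66856804, in the last exon. The rate was 0.0422, 0.0454 and 0.0491 in the labeled libraries and 0.000200 and 0.000197 in the unlabeled libraries (beta-binomial test, p = 1.18e-07). It was the highest of the 29 genes in every labeled library, and its mean exceeded that of 91.4% of all genes covered as deeply. Among genes outside the 29, *Rpl15* of the large subunit had 931 covered T positions in labeled replicate 3. Its rates of 0.0441, 0.0497 and 0.0526 lay above those of *Rps27l* in every labeled library. The next highest of the 29 were large subunit genes, *Rpl4* at 0.0360 ± 0.00216, *Rpl6* at 0.0357 ± 0.00472 and *Rpl13a* at 0.0354 ± 0.00203 (SD, n = 3). They lie inside the quartiles of all genes and do not differ beyond their spread. *Rps26*, a protein at the exit of the mRNA channel, was the highest core gene of the small subunit at 0.0316 ± 0.00171.

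Between labeled and unlabeled libraries, the rate was raised in most ribosomal protein genes that could be tested, as it was over all genes. Of 72 genes with a covered T in every library, 64 had a higher rate with S4U at p below 0.05 and none a lower one (beta-binomial test, unadjusted). Over all genes, with 1 interval each, it was 10634 of 11179, a somewhat higher share, and over all 19240 intervals tested 94.6%. All 29 deeply covered genes were among the 64, with p between 1.18e-07 and 0.00265. The 8 genes not called were *Rpl7*, *Rpl29*, *Rpl30*, *Rpl36a*, *Rplp2*, *Rps13*, *Rps15* and *Rps23*, which had only 77 to 962 covered T positions in the labeled libraries together.

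In the unlabeled libraries, where no S4U was given, most of these genes read close to the background, and 27 of the 29 had a mean rate below 0.002. The exceptions were *Rps27rt* at 0.0140 and 0.0107, and *Rpl8* at 0.00890 and 0.00782. *Rps27rt*, a retrogene of *Rps27*, had 0.0211, 0.0192 and 0.0288 in the labeled libraries, above both unlabeled values. The beta-binomial test gave p = 0.00265, and limma on the log odds p = 0.0704. *Rpl8*, a core protein near the peptidyl transferase center, had 0.0271, 0.0328 and 0.0322 with S4U. *Rpl26* was next among the 29, with 0.00219 and 0.000876 without S4U. Of the 50-base windows described below, 66.7% had an exact copy elsewhere in the genome for *Rps27rt* and 0.0% for *Rpl8*. The part of such copies in these rates was not tested. The labeled rates of both genes include this background.

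Other genes of the translation machinery were compared on the same scale. *Rack1*, a small subunit protein that is also a signaling scaffold, had a mean labeled rate of 0.0327 ± 0.00308 (SD, n = 3). Of 16 further translation genes whose mRNAs are known to carry a TOP tract, 9 were covered as deeply, with a median of 0.0268. They ranged from *Tpt1*, the translationally controlled tumor protein, at 0.0123 and the elongation factor *Eef1b2* at 0.0180 to *Pabpc1*, the poly(A)-binding protein, at 0.0397, *Nap1l1* at 0.0413 and *Npm1* at 0.0429. *Eef1a1*, the main elongation factor, had 0.0218. The 4 mitochondrial ribosomal protein genes and the 2 ribosome biogenesis genes covered as deeply had medians of 0.0353 and 0.0378. With so few genes, these last medians carry little weight.

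The gene starts show the TOP tract in part of the genes. RefSeq start sites on GRCm38.p6 were matched by symbol for 68 of the 88 genes, and the transcribed strand was searched for a C followed by at least 4 bases that are C or T, with the C at the first transcribed base. Such a tract was found at a start of 15 of the 68 genes, or 22.1%, against 3.01% of 27025 genes, and of none of 69 mitochondrial ribosomal protein genes. In the window from 15 bases before to 15 bases after the start, a run of at least 5 pyrimidines led by a C was found in 66.2% of the ribosomal protein genes and 40.3% of all genes. RefSeq starts can lie a few bases from the start used in CF, so a gene without a match is not shown to lack the tract. The windows below are shown because 6 of them have a tract at the start (*Rps6*, *Rps10*, *Rpl15*, *Rplp2*, *Rps27*, *Rps27rt*), *Rps27l* compares the paralog with *Rps27* and its retrogene, and *Rplp0* and *Rpsa* have no such run. Capitals mark the longest such run, and the 16th base is the first transcribed one.
Rps6: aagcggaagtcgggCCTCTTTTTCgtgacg
Rps10: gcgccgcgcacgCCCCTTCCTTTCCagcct
Rpl15: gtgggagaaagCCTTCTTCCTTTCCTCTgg
Rplp2: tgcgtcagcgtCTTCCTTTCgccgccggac
Rps27: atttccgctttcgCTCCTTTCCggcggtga
Rps27rt: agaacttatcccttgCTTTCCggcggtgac
Rps27l: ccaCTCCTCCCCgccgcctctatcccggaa
Rplp0: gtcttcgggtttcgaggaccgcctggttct
Rpsa: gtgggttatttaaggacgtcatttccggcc

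These windows lie at chr4:86857353-86857382 (minus strand) for *Rps6*, chr17:27635230-27635259 (minus) for *Rps10*, chr14:18270972-18271001 (minus) for *Rpl15*, chr7:141447636-141447665 (plus) for *Rplp2* and chr3:90213634-90213663 (minus) for *Rps27*. Those of *Rps27rt*, *Rps27l* and *Rpsa* lie on chromosome 9, at chr9:114982725-114982754 (minus), chr9:66946071-66946100 (plus) and chr9:120127751-120127780 (plus), and that of *Rplp0* at chr5:115559452-115559481 (plus), all of GRCm38.p6. The sequences of *Rps27* and *Rps27rt* share the end of the tract and the bases after it. That of *Rps27l*, which had the highest conversion rate of the 29 deeply covered genes, has its longest pyrimidine run ahead of the start. A shorter run of 5, also led by a C, begins just after the first transcribed base. *Rpl15*, covered less deeply, has a run of 17 bases across the start. Its labeled rates of 0.0441, 0.0497 and 0.0526 were above those of *Rps27l* in each library. *Rpsa*, among the 5 lowest rates of the 29 at 0.0159, has no run of at least 5 in this window. A relation between tract and rate was not tested.

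The levels of the ribosomal protein genes spanned more than 3 orders of magnitude, although most core proteins are built into the ribosome in equal numbers. Libraries of the 3′ end give about 1 read per transcript end, so levels were not divided by length and are given in CPM of counted reads. *Rplp1* had 2676, 1744 and 2964 CPM in the labeled libraries, and *Rps20* 2117, 1984 and 1849.6 CPM. *Rps3*, an RNA-binding protein at the mRNA entry, had a mean of 1323 ± 656 CPM, *Rpl4* 1297 ± 591 CPM and *Rps24* 1144 ± 335 CPM (SD, n = 3). The 5 highest genes of each library held between 34.1 and 38.8% of its ribosomal protein reads, and the means of *Rps3*, *Rpl4* and *Rps24* do not differ beyond their spread.

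At the other end, 34 of the 77 core genes had fewer than 10 reads in at least 1 library. *Rps27* had 1, 2 and 0 reads in the labeled and 1 and 0 in the unlabeled libraries, while its retrogene *Rps27rt* had 877, 423 and 145 against 995 and 182. *Rps4x* had 2, 0 and 0 reads with S4U and 1 and 0 without. *Rpl36* and *Rps3a1* had at most 5 reads in any library.

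These low levels went with copies of the counted sequence elsewhere in the genome. Ribosomal protein genes are the parents of many processed pseudogenes, and the deposited tables count no read as mapping to several places. For each gene, windows of 50 bases of the transcript that reach into the counted interval were searched for exact copies elsewhere in GRCm39. A median of 60.4% of a ribosomal protein gene's windows had such a copy, against 0.0% over all genes. At least 1 window was copied in 77.0% of the ribosomal protein genes, in 24.4% of the mitochondrial ribosomal protein genes and in 18.2% of all genes. Among core genes, the 18 with no copied window had a median level of 446 CPM, the 14 with below 50% copied 287 CPM and the 13 with 50 to below 90% copied 206 CPM. The 32 with 90 to 100% copied had a median of 7.66 CPM, with a range from 0.423 to 924 CPM. Across the 77 core genes, level and copied share had a Spearman correlation of -0.658, and level and interval length of 0.267. The part of the copies in these levels was not tested, and levels of copied genes are given here as counted reads, not as amounts of transcript.

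**Figure D2:**
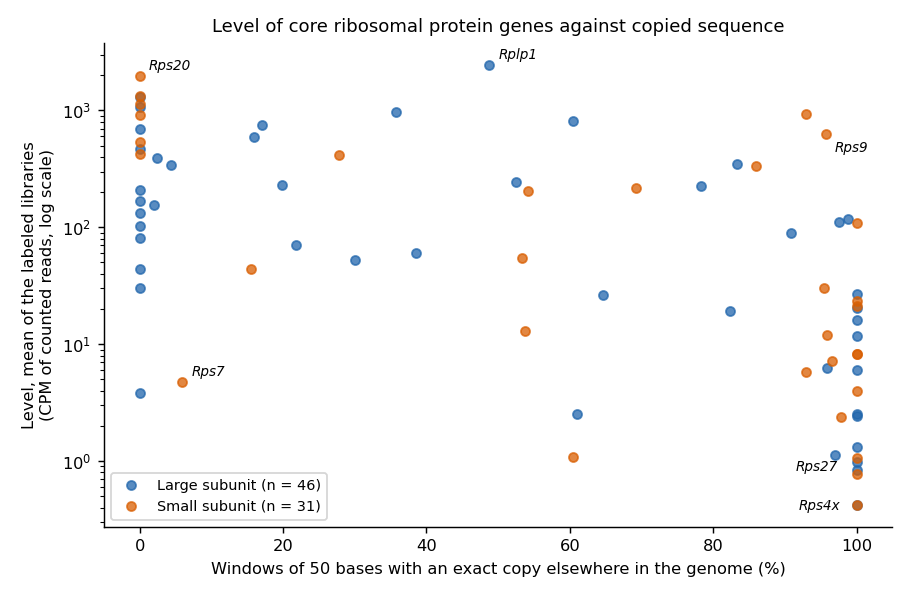
Level of the 77 core genes, as the mean of the 3 labeled libraries in CPM of counted reads on a log axis, against the percentage of 50-base windows with an exact copy elsewhere in GRCm39. Points on the right edge reach down to 0.423 CPM, while *Rps9*, also above 90% copied, stays at 630 CPM, and *Rps7* is low with few copies.

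Exceptions ran in both directions. *Rps9* had 95.7% of its windows copied and a level of 630 ± 300 CPM (SD, n = 3). *Rps7* had 5.98% copied and a level of only 4.77 ± 1.94 CPM (SD, n = 3). Across the 29 deeply covered genes, the conversion rate had a Spearman correlation of -0.161 with the copied share and of -0.389 with the level, but only 2 of the 32 core genes with 90 to 100% copied are among them. Over the deeply covered genes with below 50% copied, the median rate was 0.0232, an alternative chosen after the data were seen. The counted intervals were also short, with a median of 83 bases against 797 over all genes, and a read of the 29 genes covered a median of 12.0 to 12.4 T positions per library, against 19.9 to 23.2 over all genes covered as deeply. The rate is a share of covered T positions and does not count reads, but the share of reads with at least 1 conversion does, and was 0.230 in these genes against 0.527 in all.

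Reads were then compared between labeled and unlabeled CF, which asks whether 12 h of S4U changed the level of these transcripts. Without a replicate block, no ribosomal protein gene differed at an adjusted p below 0.05, of 64 tested (edgeR quasi-likelihood test, Benjamini-Hochberg adjustment over all genes), beside 0.0% of all 9807 genes tested. At an unadjusted p below 0.05, 4 of the 64 were higher and 2 lower, beside 2.84% and 3.12% of all genes, and DESeq2 called 1 of the 64, beside 0.194% of all genes. With the replicate number as a block, edgeR called 6 of the 64 higher and 2 lower, beside 5.38% and 6.29% of all genes, but the labels do not say that the number pairs the libraries. The median log2 fold change was 0.06 over the 64 genes and 0.02 over all genes, with 37 values above 0 and 27 below. It was 0.57 without unlabeled replicate 1 and -0.26 without unlabeled replicate 2, so that its value rested on either of these libraries. All 3 labeled libraries lay above both unlabeled ones in 5 of the 64 genes, beside 8.2% of all genes, and below both in 1, beside 13.1%. The paper states that the cells without S4U were incubated in parallel. Neither it nor the labels say which libraries share a preparation, so the test without a block may leave out a pairing. The libraries are separate preparations or cultures, and p-values measure only the spread between them. Fewer cells of a type and less RNA per cell cannot be told apart in such bulk samples.

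*Rpl22l1* was the gene with the lowest p. It encodes a paralog of Rpl22, a large subunit protein known to restrain *Rpl22l1* expression. On chromosome 3, plus strand, from 28861481 to 28861573 in its last exon (ENSMUSG00000039221.12), it had 107, 66 and 24 reads with S4U and 364 and 150 reads without. This is 67.9, 55.2 and 47.4 CPM against 198 and 151 CPM, and the groups do not overlap. Its log2 fold change was -1.52 with an SE of 0.26 (edgeR, unadjusted p = 0.000682, adjusted p = 0.513), and DESeq2 gave -1.53 with an adjusted p of 0.0334. With edgeR's other settings without a replicate block, the adjusted p ranged from 0.257 to 0.9998, and with the block it was 1.18e-12. *Rpl22* itself had 574, 497 and 332 CPM with S4U and 838 and 435 CPM without, with overlapping groups. The conversion rate of *Rpl22l1* was 0.0156, 0.0145 and 0.0232 in the labeled libraries, below the median of all genes, and its shallow coverage kept it out of the 29 genes above.

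**Figure D3:**
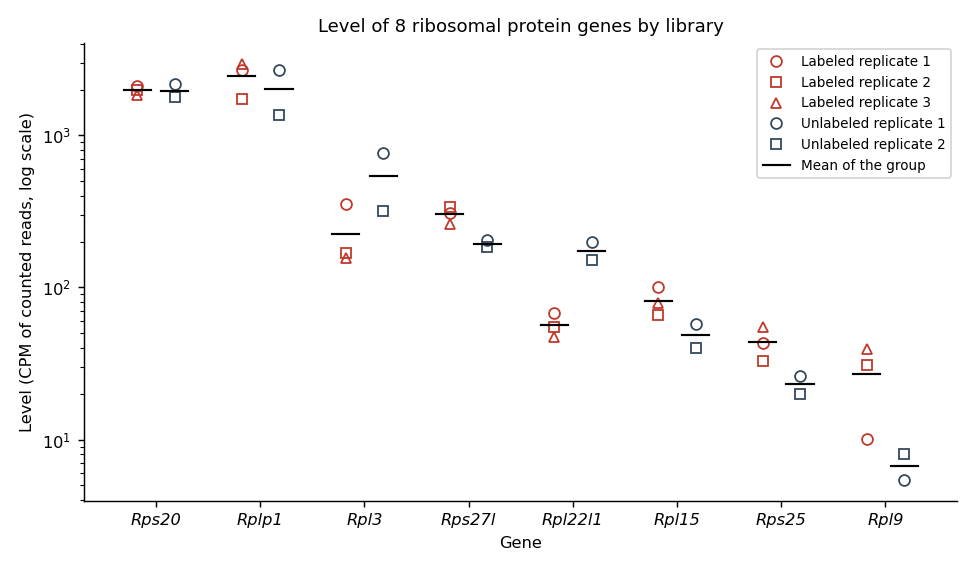
Level of 8 ribosomal protein genes in every library, in CPM of counted reads on a log axis, with a black line at the mean of each group. *Rpl22l1* is lower in all labeled libraries, *Rps27l*, *Rpl15*, *Rps25* and *Rpl9* are higher in all of them, and *Rps20*, *Rplp1* and *Rpl3* overlap between groups.

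*Rps27l* had the opposite pattern, with 310, 336 and 261 CPM in labeled and 203 and 184 CPM in unlabeled libraries (log2 fold change 0.72, SE 0.24, edgeR, unadjusted p = 0.0186, adjusted p = 0.724). *Rpl9*, a large subunit protein, had the largest fold change, with 10 and 8 reads without S4U and 16, 37 and 20 reads with it (log2 fold change 2.04, SE 0.69, edgeR, adjusted p = 0.731), and all of its windows are copied elsewhere. *Rps25*, known for its part in initiation at internal ribosome entry sites, and *Rpl15*, a large subunit core protein, had log2 fold changes of 0.97 and 0.82 (edgeR, adjusted p = 0.773 and 0.780). *Rpl3*, a core protein at the peptidyl transferase center, had 352, 169 and 156 CPM with S4U and 765 and 318 CPM without, and here labeled replicate 1 lay above unlabeled replicate 2 (log2 fold change -1.17, SE 0.46, edgeR, adjusted p = 0.801). None of these differences passed edgeR's test without the replicate number as a block, and all 5 genes passed it with the block. Of the most abundant genes, *Rps20* had 2167 and 1772 CPM without S4U, around the labeled range (log2 fold change 0.09, SE 0.23).

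The functional groups within the ribosome were read for their changes of reads. The SE of these log2 fold changes ran from 0.24 for *Rps26* to 1.055 for *Rps28*, so most values lie within their error. Of the stalk, *Rplp0* had a log2 fold change of 0.40, *Rplp1* of 0.38 and *Rplp2* of 1.23, the last from 6 to 28 reads per library. *Rpl5* and *Rpl11*, which with 5S ribosomal RNA bind MDM2, had values of -0.08 and -0.02. At the tunnel exit, where the new chain leaves the ribosome, the values were 0.08 for *Rpl17*, 0.25 for *Rpl19*, -0.52 for *Rpl23a*, -0.41 for *Rpl26*, 0.18 for *Rpl31* and 0.01 for *Rpl39*, and *Rpl35* had too few reads to be tested. *Rps2* and *Rps3* of the mRNA entry had 0.11 and 0.14, and *Rps26* and *Rps28* of the mRNA exit -0.03 and -0.04. *Rps6*, the substrate of the S6 kinases, had 0.19. *Rps27a*, made as a fusion with ubiquitin, had 15, 3 and 0 reads with S4U and 6 and 1 without, and was not tested. None of the tested genes of these groups passed edgeR's test. Without a block it called 0 of all 9807 genes, so this does not show that the groups are unchanged.

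The conversion rates of genes from some of the same groups were also compared. *Rplp0* had 0.0193, 0.0214 and 0.0171 in the labeled libraries, above the 0.00908 to 0.00988 of *Rplp1* in every library. *Rplp2*, with only 83 to 504 covered T positions, had 0.0404, 0.0139 and 0.00851. *Rpl11*, with 437 to 2901 covered T positions, had 0.0339, 0.0445 and 0.0458, and *Rpl5*, with 327 to 2370, had 0.0308, 0.0515 and 0.0275. At the tunnel exit, *Rpl39* had 0.0139, 0.0210 and 0.0163, *Rpl31* 0.0165, 0.0236 and 0.0144, and *Rpl26* 0.0239, 0.0257 and 0.0253. *Rpl26* was above *Rpl39* and *Rpl31* in each labeled library. *Rps6* had 0.0269, 0.0228 and 0.0334, from 628 to 2157 covered T positions.

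The paralogs and their parents differed in read counts. *Rpl3l*, known as the form of striated muscle, had 1 read in unlabeled replicate 1 and none elsewhere, and *Rpl10l*, the form of the testis, had no read in any library. *Rpl36al* had 512, 143 and 45 reads with S4U and 677 and 114 without, while *Rpl36a* had between 1 and 6. Of their windows, 76.8% were copied in *Rpl36al* and 61.0% in *Rpl36a*. *Rpl7l1*, a nucleolar relative of Rpl7, had 94, 105 and 45 reads with S4U and 136 and 66 without, while *Rpl7* had between 2 and 4, with all of its windows copied. *Rpl39l* had between 1 and 12 reads, far fewer than *Rpl39* with 99 to 590. Where the parent or the paralog is copied in most or all of its windows, the reads of the 2 cannot be set against each other as transcript levels.

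The libraries called replicate 1 stood apart from the others in these genes. The median log2 ratio of replicate 1 to replicate 2 over the 64 genes was 0.58 in labeled and 0.96 in unlabeled libraries, against 0.09 and 0.11 over all genes. In 48 of the 64 genes replicate 1 was higher in both groups, and in 9 it was lower in both, against 4431 and 3417 of all 9807 genes. The trait was also seen in the further translation genes with a TOP tract, of which 15 were tested. Their medians were 0.35 in labeled and 0.75 in unlabeled libraries, with replicate 1 higher in both groups in 9 and lower in both in 4. *Rpl13* had 1746, 557 and 593 CPM in labeled and 1653 and 520.1 CPM in unlabeled libraries, so that both libraries called replicate 1 were about 3 times as high as the other 3. *Rps10* had 424, 83.7 and 144 CPM with S4U and 381 and 97.4 CPM without.

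A few genes went the other way and by more. *Rpl41*, which encodes the smallest protein of the ribosome, had 4, 162 and 65 reads in labeled and 12 and 97 reads in unlabeled libraries. *Rps15*, of the small subunit head, had 7, 240 and 62 reads in labeled and 7 and 137 in unlabeled libraries. In CPM, *Rpl41* was at 2.54 and 6.51 in the libraries called replicate 1 and at 97.4 to 136 in the other 3. *Rps14*, *Rps28*, *Rpl29* and *Rpl37* had the same direction. Across the 64 genes, the ratio in labeled and that in unlabeled libraries had a Spearman correlation of 0.894. The labels do not say what a replicate number marks, and its part in the comparison of reads between groups was looked at by leaving each library out and by taking the number as a block.

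**Figure D4:**
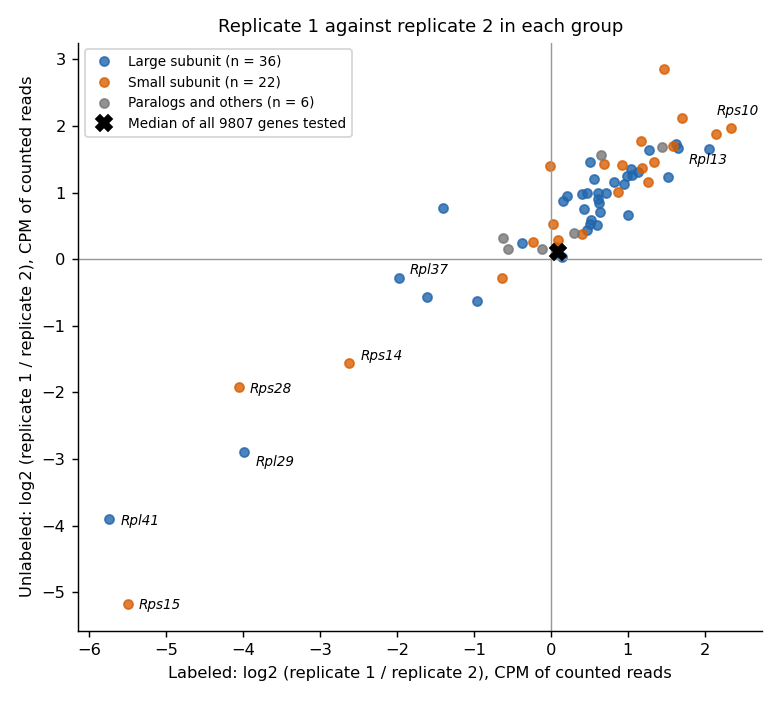
Log2 ratio of replicate 1 to replicate 2, in CPM of counted reads, in labeled (x axis) and unlabeled (y axis) libraries for the 64 genes tested, with a cross at the median of all 9807 genes tested. Most genes lie in the upper right, and *Rpl41* and *Rps15* lie at the far lower left, at -5.74 and -5.50 in labeled libraries.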

How the data were processed

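Libraries of CF RNA were made by the authors with the QuantSeq 3′ FWD kit and UMI. The submitters' processing notes name bcl2fastq, FastQC, MultiQC, UMI-tools and mm39. The file headers name SLAM-DUNK 0.4.3 and a set of 3′ UTR intervals. The authors deposited, per interval and library, counts of reads, reads with a T>C conversion, covered T positions and conversions, not normalized. The deposited conversion rate is a fraction of covered T positions. The deposited CPM divides reads by one number per library that exceeds the counted reads; levels here divide by the counted reads instead, and the deposited CPM served only to choose intervals.

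Repeated rows were used once, and for each gene the interval highest in mean deposited CPM over the labeled libraries was kept. Coordinates are counted from 1. The T content of all 20329 intervals on reference chromosomes matched GRCm39, and 87 of 88 ribosomal protein genes had an annotated transcript on the interval (GENCODE). Of these genes, 81 had the whole interval in the last exon.

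T>C rates of both groups entered a beta-binomial model with a likelihood-ratio test (shared overdispersion, two-sided, p below 0.05, at least 1 covered T in every library). Reads were compared with edgeR 4.0.16 (quasi-likelihood test, TMM, filterByExpr, two-sided, Benjamini-Hochberg adjustment). Copies were exact matches of 50-base windows, taken from the last 300 transcript bases up to the interval's end, on either strand. The alternatives used DESeq2 1.42.0, limma 3.58.1 (pseudocount 0.5), other size factors, filters, summed intervals, other covered T minimums, the share of reads with a conversion, the replicate number as a block and each library left out. Scripts ran in R 4.3.3 and in Python 3.11.15 with pandas 2.3.3, numpy 2.4.6, numba 0.67.0, scipy 1.17.1 and, for the figures, matplotlib 3.10.9. The tests were tested on simulated data.

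The genes, lists and tests were chosen with earlier results of these data known. The genes named are the 5 highest and lowest rates, levels (at least 10 reads in every library) and read changes, the 3 highest unlabeled rates, paralogs with their parents, and the role lists. *Rpl13*, *Rps7*, *Rps10*, *Rps14*, *Rps15*, *Rpl29*, *Rpl37* and other genes at low counts were named after their values were seen. Results for some genes of the rule are not reported here.

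Depth was 506045 to 1842863 counted reads per library, and 15282090 to 53609626 covered T positions on all intervals. Counts carry counting error beside the spread between libraries.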

Additional observations from a re-analysis of the deposited data

How the results depend on the processing

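The call of a raised rate in 64 genes changed most with the minimum of covered T positions, since only 29 genes have at least 1000, and all 29 were called. The count was 51 with at least 100 covered T, which is every one of the 51 genes covered so. With each library left out it was 54 to 66, and the number of genes tested can then differ. Of the 72 genes tested, limma on the log odds called 65, and 68 with the replicate block. Shares over all intervals were not taken for these settings. The median rate of 0.0230 was 0.0250 with at least 100 and 0.0246 with at least 1 covered T, 0.0217 with the unlabeled rate subtracted, and 0.0226 to 0.0240 with each labeled library left out. As a share of reads with a conversion, which is another scale, it was 0.230. With the same minimums, the median over all genes was 0.0384 and 0.0379.

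No gene's reads were called under any edgeR setting without the block, each library left out included. DESeq2 called 1 gene, *Rpl22l1*, beside 13 higher and 6 lower of 9807 genes. With the replicate block, edgeR called 8 genes, *Rpl9*, *Rpl15*, *Rps25*, *Rps27l*, *Rps27rt* and *Rpsa* higher and *Rpl3* and *Rpl22l1* lower, beside 528 and 617 of 9807 genes. Deviations of libraries with the same number had a correlation of 0.77 and 0.617, but the labels give only a number, and with 2 unlabeled libraries these values mirror each other. The median log2 fold change ranged from -0.26 to 0.57 with each library left out. Among genes named, no called value reversed its direction. By the beta-binomial test, the call of a raised rate was lost in *Rpl23a* without labeled replicate 1 (p = 0.132), labeled replicate 3 (p = 0.102), unlabeled replicate 1 (p = 0.115) or unlabeled replicate 2 (p = 0.0661). It was lost by the beta-binomial test in *Rpl39l* without unlabeled replicate 1 (p = 0.0625) and in *Rps28* without unlabeled replicate 1 (p = 0.0548) or unlabeled replicate 2 (p = 0.104), and that of *Rplp2* was gained without unlabeled replicate 2 (beta-binomial test, p = 0.0225). The causes were not tested. Depth limits genes copied elsewhere most, and 34 of 77 core genes had fewer than 10 reads in at least 1 library.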

Other observations

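Ribosome assembly factors were a further group beside the ribosomal proteins. Of 22 ribosome biogenesis genes, 20 were tested for reads and 0 were called (edgeR, adjusted p below 0.05; 0 also at an unadjusted p below 0.05), with a median log2 fold change of 0.23 and 16 values above 0. Their replicate 1 was higher than replicate 2 in both groups in 4 and lower in both in 12 of the 20 genes. The 74 mitochondrial ribosomal protein genes tested had a median log2 fold change of 0.23 with 57 values above 0, and 0 were called (edgeR, adjusted p below 0.05; at an unadjusted p below 0.05, 1 was higher and 0 lower). The 15 further translation genes with a TOP tract that were tested had a median of -0.15, with 3 values above 0 and 12 below, and 0 were called. Over all 9807 genes the median was 0.02, with 5075 values above 0, and 0.0% were called. At an unadjusted p below 0.05 (edgeR), 2.84% of all genes were higher and 3.12% lower. *Ncl*, the nucleolar protein nucleolin, had a rate of 0.0401, 0.0380 and 0.0407 in labeled libraries, and *Rrs1*, a factor of large subunit assembly, 0.0286, 0.0352 and 0.0440.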
